A study of Rattus norvegicus with 63 samples.

Results

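Livers of rats dosed with methapyrilene (MPy) were compared directly with livers of rats dosed with thioacetamide (TAA). Both compounds were given for 7 days and the labels assign both to control set 1, so the difference between the 2 groups contains no control array and no difference in dosing time. The comparison holds 6 of the 63 arrays of the series, 3 of MPy and 3 of TAA, each from 1 animal. The series covers 15 compounds and their vehicle controls in 21 groups and was collected to separate carcinogens from non-carcinogens by short-term liver profiles. The MPy rats were male Wistar Hanover rats of 8 to 10 weeks that received 60 mg/kg/d methapyrilene hydrochloride by gavage for 7 days. The TAA rats had the same strain, sex and age and received 19.2 mg/kg/d by gavage for 7 days. The 3 rats of control set 1 received methylcellulose by gavage, for 14 days by their labels, whereas the study's methods describe controls matched in time. Set 1 is therefore used only to place the levels of both compounds. For the dosed rats the methods name carboxymethyl cellulose as vehicle of both compounds, while the study's overview of compounds gives methylcellulose for MPy and carboxymethyl cellulose for TAA. The dose, and by that overview the vehicle, differed together with the compound, so their effects cannot be told apart from that of the compound. The arrays come from animals chosen after histopathology out of 5 dosed rats per group and are not a random draw.

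MPy is an antihistamine that injures the periportal zone of the rat lobule and changes the mitochondria of its hepatocytes, and the male rat enzyme Cyp2c11 converts it to a reactive product. TAA is oxidised on its sulfur by Cyp2e1 and flavin monooxygenases, and its products bind to proteins around the central vein, where the injury begins. Hepatocytes along the lobule differ in their genes: those around the portal vein make glucose and urea, and those around the central vein make glutamine and carry most of the P450 enzymes. Hepatocytes that run short of amino acids, or whose mitochondria or endoplasmic reticulum (ER) are under stress, slow translation and make the transcription factor ATF4, which switches on genes for amino acid supply and secreted stress hormones.

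RNA was measured on Affymetrix RAE230A arrays, and the deposited log2 signals of 15866 probe sets represent 10411 genes with 1 symbol (for each gene, the brightest probe set was taken). All differences below are MPy minus TAA on the log2 scale, with ± SE of a linear model (limma) that was fitted to all 63 arrays with 1 mean per group. A gene was called at a Benjamini-Hochberg adjusted p under 0.05 over all probe sets, and adjusted p-values quoted here come from this limma fit (n = 3 against 3). With 3 animals per group the smallest p of an exact permutation test is 0.1, and all calls rest on the spread pooled over the groups. Array medians lay between 7.42 and 7.51 over the series, and the 6 arrays correlated with their own group at 0.9936 to 0.995. The liver label was borne out by Alb, the main plasma protein of hepatocytes, which read 15.02, 15.03 and 15.07 in MPy livers and 15.05, 14.99 and 15.06 in TAA livers. None of the 18 measured hepatocyte markers was called (limma, 0 of 18, with 3 at an unadjusted p under 0.05). Beside such unadjusted counts, here and below, stand 2212 of all 15866 probe sets at an unadjusted p under 0.05. In bulk tissue, fewer cells of a type and less RNA per cell cannot be told apart.

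MPy and TAA livers differed in 335 probe sets (2.11% of those tested), of which 213 were higher (1.34%) and 122 lower (0.769%) in MPy livers. Beyond 2.5-fold there were 31 probe sets, 25 higher (0.158%) and 6 lower (0.0378%), 0.195% in all. At the level of genes, 249 of 10411 were called (2.39%), 150 higher (1.44%) and 99 lower (0.951%). In 238 of these 249 genes the 3 MPy animals lay on one side of all 3 TAA animals, which was true of 2139 genes (20.5%) in all. The largest differences upwards were in Fgf21, a hormone that the liver secretes in starvation and stress (3.63 ± 0.32), Igfbp1, a secreted carrier of insulin-like growth factors (2.78 ± 0.48), and Cyp4b1, a P450 enzyme (2.68 ± 0.17). The largest downwards among called genes was in Cyp2c12, a P450 enzyme of the female rat liver (-1.68 ± 0.42). The balance of directions depended on the scaling of the arrays: with each array centred on its median, 155 probe sets were higher and 168 lower. With estimated array weights the total was 809 probe sets (472 higher, 337 lower). It also moved with single animals, to 188 probe sets without MPy animal 1, 184 without MPy animal 2 and 164 without TAA animal 3.

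**Figure D1:**
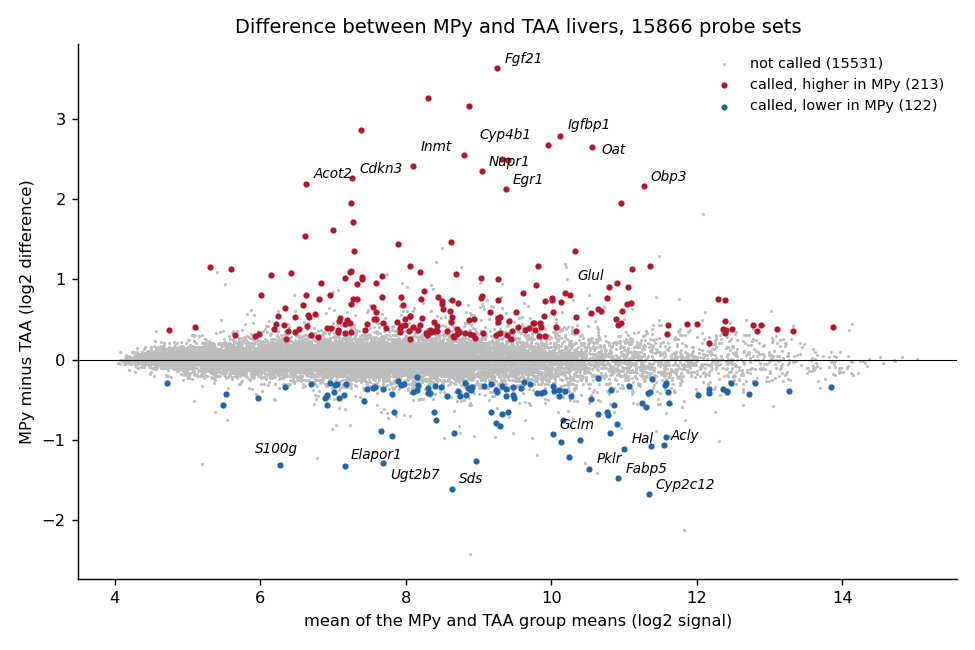
Difference between the MPy and TAA group means of each probe set (y axis, log2, positive where MPy is higher) against the mean of both group means (x axis, log2 signal). Red points are the 213 probe sets called higher and blue points the 122 called lower in MPy livers, grey points were not called, and the labels name leading genes such as Fgf21 at 3.63 and Cyp2c12 at -1.68.

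Against control set 1, MPy gave 1002 called probe sets (6.32%; 3.28% higher and 3.04% lower) and TAA 1015 (6.4%; 3.15% higher and 3.25% lower), 2 comparisons that share their 3 control animals. At the level of genes, 6.8% were called in MPy livers (3.49% higher, 3.31% lower) and 7.28% in TAA livers (3.6% higher, 3.68% lower). The count for TAA moved to 585 without TAA animal 1, 620 without TAA animal 3, 608 without vehicle animal 1 and 617 without vehicle animal 3, and that for MPy to 652 without MPy animal 2. Of the 150 genes that were higher in MPy than in TAA livers, 64 were called against set 1 in MPy alone, 29 in TAA alone, 11 in both and 46 in neither. Of the 99 lower genes, 29 were called against set 1 in MPy alone, 33 in TAA alone, 2 in both and 35 in neither. The direct difference thus held genes at which MPy livers stood away from vehicle and genes at which TAA livers did. In 35 called genes all MPy animals lay on one side and all TAA animals on the other side of all 3 vehicle animals, with MPy above in 25 and below in 10. Among the 15 pairs of the 6 compounds compared with set 1, MPy with TAA had the fewest called probe sets (335, next 485, most 3254). The pairs differ in whether their days match, so this order is a description.

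Of the 34 measured members of the ATF4 and ER stress list 12 were called higher in MPy livers and 0 lower. The shares over all genes were 1.44% and 0.951%, and they stand beside every list count between MPy and TAA below. The median difference was 0.28 beside 0.01 for all genes. Fgf21 read 11.28, 11.19 and 10.75 in MPy livers, against 7.46, 7.11 and 7.76 in TAA livers and 7.19, 7.40 and 7.22 in set 1. All 3 MPy animals stood far above the other 6, a 12.4-fold difference to TAA (3.63 ± 0.32, adjusted p = 1.08e-11), while TAA lay 0.17 above set 1 (adjusted p = 0.834). Trib3, a pseudokinase that ATF4 induces and that restrains Akt, read 10.32, 10.53 and 10.88 in MPy livers, against 8.13, 8.04 and 8.07 in TAA livers and 7.92, 8.07 and 8.56 in set 1. It was 5.65-fold higher (2.5 ± 0.19, adjusted p = 8.11e-14), and its other 2 probe sets gave 3.26 and 3.16. Nupr1, a small stress-induced chromatin protein, read 10.30, 9.88 and 10.49 in MPy livers, against 8.01, 7.94 and 7.66 in TAA livers and 8.50, 9.46 and 8.54 in set 1. The vehicle animals thus lay between both compounds (2.35 ± 0.34, adjusted p = 7.97e-06).

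Promoters of these 3 genes are shown as examples from the list, and all 3 carry the motif marked below. Ddit4, whose difference (2.41) was larger than that of Nupr1 (2.35), held no match and is not shown. The windows run from 250 bases before to 50 bases after the gene start in RefSeq, 5′ to 3′ on the gene's strand. Capitals mark the C/EBP-ATF response element TGATGNAA on either strand, the motif bound by ATF4 with a C/EBP partner.
Fgf21 promoter (GRCr8, chr1:105221327-105221626, minus strand): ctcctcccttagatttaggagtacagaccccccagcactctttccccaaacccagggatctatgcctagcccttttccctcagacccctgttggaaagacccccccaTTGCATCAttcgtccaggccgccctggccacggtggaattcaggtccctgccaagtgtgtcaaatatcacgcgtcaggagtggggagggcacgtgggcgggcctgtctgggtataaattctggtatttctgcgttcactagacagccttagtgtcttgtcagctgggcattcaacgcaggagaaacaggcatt
Trib3 promoter (GRCr8, chr3:161275484-161275783, minus strand): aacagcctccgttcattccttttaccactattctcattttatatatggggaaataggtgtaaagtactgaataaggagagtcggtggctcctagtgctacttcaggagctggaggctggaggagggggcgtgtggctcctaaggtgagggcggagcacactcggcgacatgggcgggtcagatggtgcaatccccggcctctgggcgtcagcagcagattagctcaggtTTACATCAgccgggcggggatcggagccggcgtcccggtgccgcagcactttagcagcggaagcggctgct
Nupr1 promoter (GRCr8, chr1:190645852-190646151, minus strand): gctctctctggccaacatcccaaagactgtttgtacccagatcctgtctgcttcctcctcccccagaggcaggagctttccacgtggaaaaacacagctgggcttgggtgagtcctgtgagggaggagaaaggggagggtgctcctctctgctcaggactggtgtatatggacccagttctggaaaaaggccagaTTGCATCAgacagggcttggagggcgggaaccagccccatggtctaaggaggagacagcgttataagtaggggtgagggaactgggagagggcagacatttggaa
Each window held 1 match, on the strand opposite to the gene, 143 bases before the start of Fgf21, 21 before that of Trib3 and 55 before that of Nupr1. The motif was found in 4 of the 11 called members with a promoter in the table (36.4%), the other being Chac1, in 1 of 18 members not called (5.56%) and in 1332 of all 33469 promoters (3.98%). A match describes the letters of the window and is not a measured binding site.

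The called members spanned several roles. Ddit4, an inhibitor of the growth kinase mTORC1, was higher by 2.41 ± 0.35, with 9.75, 9.43 and 8.75 in MPy livers, against 6.83, 6.77 and 7.09 in TAA livers. Among enzymes of serine and asparagine synthesis, Psat1 was higher by 1.09 ± 0.23, Phgdh by 0.96 ± 0.19 and Asns by 0.94 ± 0.19. Asns read 7.79, 7.87 and 7.73 in MPy livers, 6.90, 6.75 and 6.93 in TAA livers and 6.04, 6.12 and 6.43 in set 1, so that both compounds stood above vehicle (1.60 for MPy and 0.66 for TAA, adjusted p = 5.13e-08 and 0.0265). Chac1, which degrades glutathione, was higher by 0.75 ± 0.13, the transcription factor Atf3 by 0.81 ± 0.09 and Slc3a2, the heavy chain of amino acid transporters, by 0.63 ± 0.15. Gdf15, a secreted stress hormone, was higher by 0.54 ± 0.15 and Dnajc3, an ER-resident co-chaperone, by 0.46 ± 0.11. The calls of Gdf15 (each of the 6 animals), Dnajc3 (MPy animals 1 and 3, TAA animal 3) and Slc3a2 (MPy animal 3, TAA animal 3) were lost when the animals in brackets were left out one at a time, at adjusted p between 0.0548 and 0.174.

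The other ER chaperones and foldases on the list were not called. Hspa5, the main ER chaperone, read 12.17, 11.87 and 11.98 in MPy livers, against 12.04, 12.09 and 12.18 in TAA livers, and overlapped (-0.10 ± 0.13, adjusted p = 0.823). Pdia4, a disulfide isomerase, differed by -0.32 (adjusted p = 0.264), Calr by -0.05 and Hsp90b1 by -0.18. Atf4 itself read 11.34, 11.25 and 11.16 in MPy livers, against 10.63, 10.93 and 10.66 in TAA livers, and was not called (0.51 ± 0.17, adjusted p = 0.113), nor was Ddit3, which encodes CHOP (0.60 ± 0.19, adjusted p = 0.0811). The groups did not overlap for either gene.

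**Figure D2:**
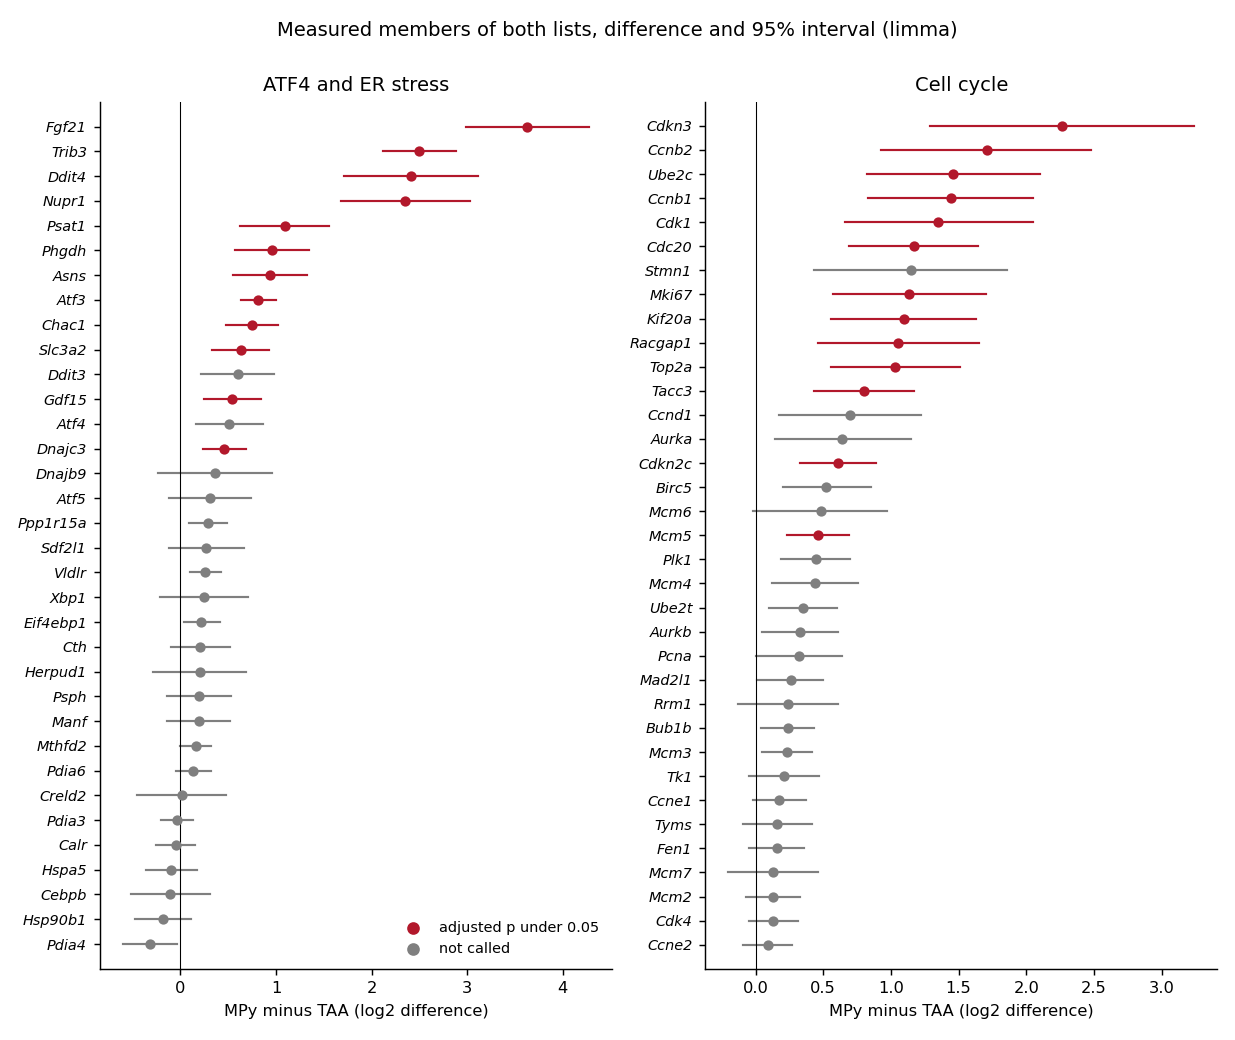
MPy minus TAA difference (x axis, log2) with its 95% confidence interval for every measured member of the ATF4 and ER stress list (left, 34 genes) and the cell cycle list (right, 35 genes). Red members were called, 12 on the left and 13 on the right, all of them to the right of 0.

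On the cell cycle list 13 of 35 measured members were called higher in MPy livers and 0 lower (median difference 0.46). The shares over all genes were 1.44% and 0.951%. All 35 members had a positive difference, from 0.09 to 2.26. The mean level of the list lay between 7.60 and 7.79 in MPy animals, between 7.02 and 7.10 in TAA animals and between 7.14 and 7.16 in set 1. Against set 1, 11 members were called higher in MPy livers (3.49% of all genes) and 0 in TAA livers (3.6%). Cdkn3, a phosphatase that acts on cyclin-dependent kinases, read 8.10, 8.57 and 8.49 in MPy livers, against 6.16, 5.96 and 6.26 in TAA livers and 6.58, 6.29 and 6.71 in set 1. The groups were far apart (2.26 ± 0.49, adjusted p = 0.0042), and each TAA animal lay below each vehicle animal. Ccnb1, cyclin B1 of the entry into mitosis, read 8.78, 8.65 and 8.44 in MPy livers, against 7.35, 7.05 and 7.15 in TAA livers and 7.44, 7.41 and 7.29 in set 1 (1.44 ± 0.30, adjusted p = 0.00344). Its second probe set gave 1.61.

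Of the other called members, Ccnb2, cyclin B2, was higher by 1.71 ± 0.38, Ube2c, which marks mitotic proteins for degradation, by 1.46 ± 0.32, Cdk1, the mitotic kinase, by 1.35 ± 0.34 and Cdc20, an activator of the anaphase-promoting complex, by 1.17 ± 0.23. Mki67, the proliferation antigen, was higher by 1.13 ± 0.28, the kinesin Kif20a by 1.10 ± 0.27, Top2a, which untangles chromosomes, by 1.03 ± 0.24 and the spindle protein Tacc3 by 0.80 ± 0.18. Racgap1, which acts in cytokinesis, was higher by 1.05 ± 0.30, and Cdkn2c, an inhibitor of the G1 kinases, by 0.61 ± 0.14. Mcm5, part of the replicative helicase, was called (0.46 ± 0.11), whereas its partners Mcm2 (0.13, adjusted p = 0.629) and Mcm3 (0.23, adjusted p = 0.202) and Pcna, the replication clamp (0.32, adjusted p = 0.353), were not. Only 7 members remained called without MPy animal 3 and 7 without TAA animal 3, and 8 without MPy animal 1. Ccnb1, Cdkn3, Ube2c and Cdc20 kept their call without any 1 of the 6 animals, and Ccnb2 lost it without MPy animal 2 (adjusted p = 0.0535). Racgap1 lost it without any 1 of the 6 animals (adjusted p 0.084 to 0.174) and Cdk1 without any but MPy animal 2 (0.0563 to 0.106). Mki67 (MPy animals 1 and 3, TAA animals 1 and 3), Kif20a (MPy animals 1 and 2, TAA animal 3), Mcm5 (MPy animals 2 and 3, TAA animal 3), Cdkn2c (MPy animal 3, TAA animal 3), Tacc3 (MPy animal 1) and Top2a (MPy animal 3) lost it when the animals in brackets were left out one at a time, at adjusted p between 0.0584 and 0.15. Cdc20 has 5 probe sets, of which 2 were called, and the second probe set of Top2a gave 0.39 and was not called (adjusted p = 0.0695).

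Promoters of the B-type cyclins are shown because these genes moved with the list and because CCAAT boxes, bound by the factor NF-Y, are a known feature of mitotic genes. Capitals mark the CCAAT box, searched on both strands in the same RefSeq window.
Ccnb1 promoter (GRCr8, chr2:33655176-33655475, minus strand): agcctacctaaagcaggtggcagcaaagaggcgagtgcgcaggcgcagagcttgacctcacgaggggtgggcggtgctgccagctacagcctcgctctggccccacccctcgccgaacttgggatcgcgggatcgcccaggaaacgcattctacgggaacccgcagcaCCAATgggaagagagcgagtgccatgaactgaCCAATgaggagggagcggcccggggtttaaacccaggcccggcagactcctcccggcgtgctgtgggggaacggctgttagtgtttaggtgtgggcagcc
Ccnb2 promoter (GRCr8, chr8:79981609-79981908, minus strand): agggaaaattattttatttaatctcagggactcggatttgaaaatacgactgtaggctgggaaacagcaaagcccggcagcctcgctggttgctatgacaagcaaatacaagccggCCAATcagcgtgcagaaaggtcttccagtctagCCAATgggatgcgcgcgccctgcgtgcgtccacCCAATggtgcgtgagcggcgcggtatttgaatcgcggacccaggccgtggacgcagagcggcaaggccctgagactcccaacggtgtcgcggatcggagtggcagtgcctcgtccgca
Ccnb1 held 2 matches and Ccnb2 held 3. At least 2 matches were found in 10 of the 11 called members with a promoter in the table (90.9%), in 4 of 18 members not called (22.2%) and in 3742 of all 33469 promoters (11.2%). A match is again a description of the letters only.

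The levels of other cell types are given beside these lists. None of the 19 macrophage markers was called (limma, 4 at an unadjusted p under 0.05), with a median difference of 0.19 and list levels of 8.82 to 8.98 in MPy animals, 8.64 to 8.83 in TAA animals and 8.71 to 8.87 in set 1. Of 18 biliary and progenitor markers 0 were called (1 at an unadjusted p under 0.05), with list levels of 7.68 to 7.85 in MPy animals and 7.70 to 7.78 in TAA animals. Of 32 stellate cell and matrix markers only Pdgfrb, the receptor of platelet-derived growth factor, was called (0.34 ± 0.10), and its call was lost without MPy animals 1 or 2 or TAA animals 1 or 3 (adjusted p 0.105 to 0.241). The part of other cell types in the cell cycle and stress differences was not tested.

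**Figure D3:**
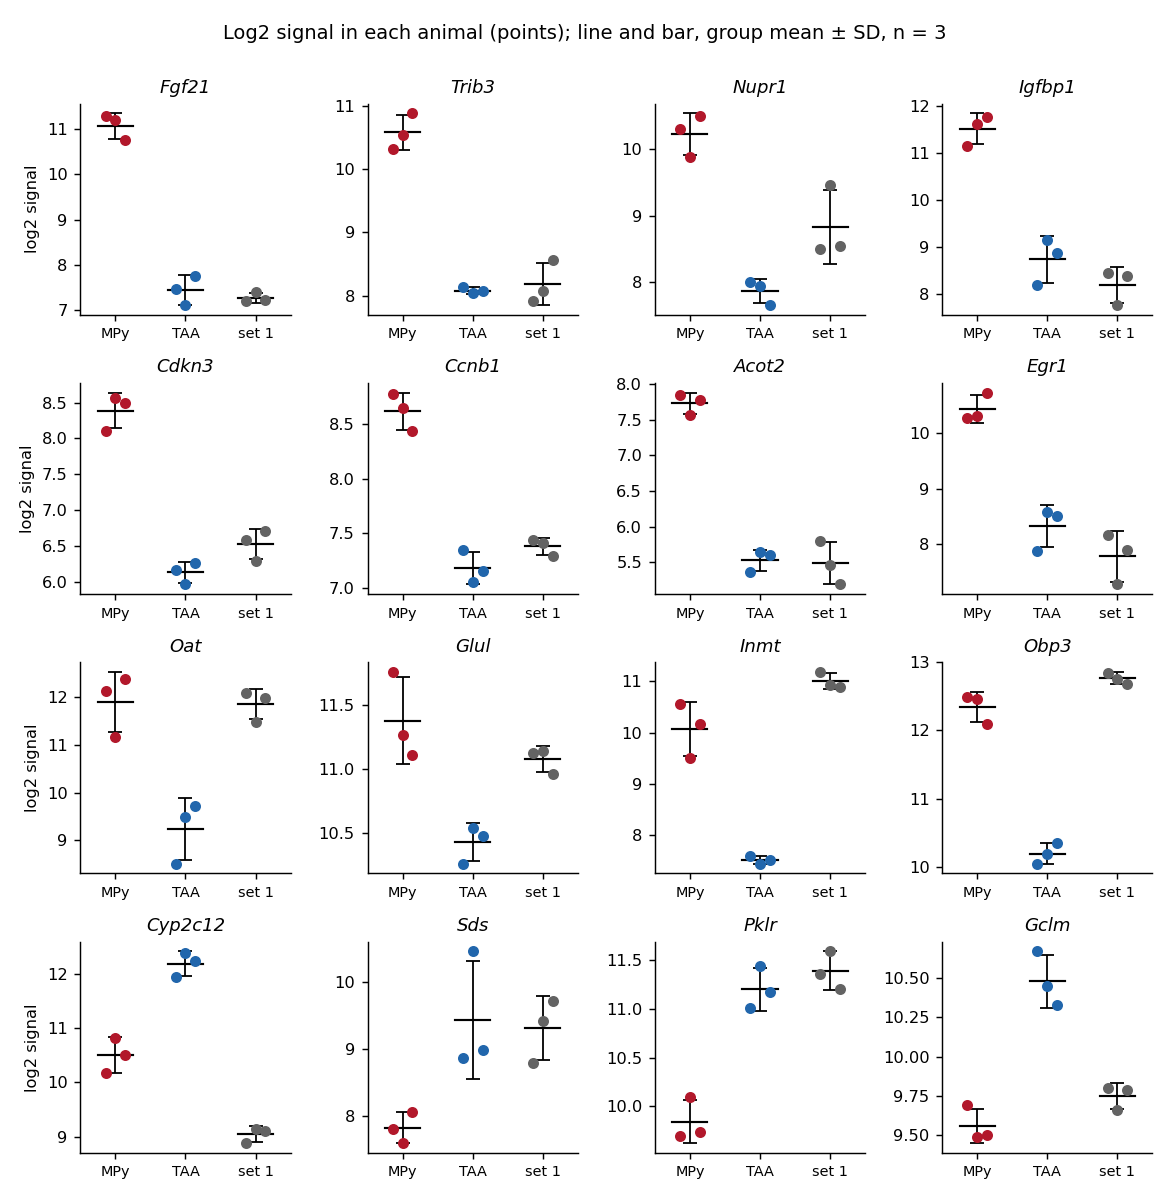
Log2 signal (y axis, a separate range for each gene that does not start at 0) of 16 genes in the 3 animals of MPy, TAA and control set 1; points are animals, lines and bars the group mean ± SD. In the 2 upper rows MPy stands apart from both other groups and in the third row TAA does. In the lowest row Cyp2c12 separates all 3 groups, Sds and Pklr are low in MPy and Gclm is high in TAA. Nupr1, Cdkn3, Inmt and Obp3 also separate all 3 groups.

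The secreted Igfbp1 and the immediate early gene Egr1 were higher in MPy livers too. Igfbp1 read 11.14, 11.61 and 11.77 in MPy livers, against 8.18, 9.15 and 8.87 in TAA livers and 8.44, 7.76 and 8.38 in set 1 (6.85-fold, adjusted p = 0.000244). Egr1, a transcription factor that answers growth signals early, read 10.27, 10.31 and 10.73 in MPy livers, against 7.88, 8.58 and 8.50 in TAA livers and 8.17, 7.27 and 7.89 in set 1 (2.12 ± 0.40, adjusted p = 0.000772). For both genes the MPy animals stood alone and TAA animals overlapped with vehicle. In the immediate early list 2 of 23 members were called higher, Egr1 and Atf3, and 0 lower. The shares over all genes were 1.44% and 0.951%, and the list median was 0.15. Jun differed by 0.66 (adjusted p = 0.0769) and Fos by 0.05.

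Of 32 genes of PPARalpha and fatty acid oxidation 9 were called higher and 1 lower in MPy livers (1.44% and 0.951% of all genes), with a median of 0.22. Against set 1, 5 members were called higher and 3 lower in MPy livers (3.49% and 3.31% of all genes), and 0 higher and 7 lower in TAA livers (3.6% and 3.68%). Acot2, a mitochondrial thioesterase that frees fatty acids from coenzyme A, read 7.85, 7.56 and 7.77 in MPy livers, against 5.36, 5.64 and 5.61 in TAA livers and 5.80, 5.46 and 5.20 in set 1 (2.19 ± 0.27, adjusted p = 3.35e-07). Its cytosolic relative Acot1 was higher by 1.15 ± 0.24, and the 2 are close paralogs whose probes may share signal. Eci1, an isomerase for the oxidation of unsaturated fatty acids, read 11.40, 11.57 and 11.55 in MPy livers, against 10.30, 10.66 and 10.85 in TAA livers and 11.41, 11.07 and 11.26 in set 1. Here the TAA animals were low and MPy animals were near vehicle (0.90 ± 0.16), but a second and dimmer Eci1 probe set gave 0.03 and was not called (adjusted p = 0.941). Hadhb, the thiolase subunit of the trifunctional protein, was higher by 0.71 ± 0.10, whereas its partner subunit Hadha was not called (0.15, adjusted p = 0.573).

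The omega-hydroxylases Cyp4a3 and Cyp4a1 were higher by 0.74 ± 0.16 and 0.69 ± 0.19, Ech1, a dienoyl coenzyme A isomerase, by 0.59 ± 0.16 and the peroxisomal enzyme Hsd17b4 by 0.32 ± 0.08. Aig1, a lipid hydrolase, was higher by 0.78 ± 0.14. Fabp1, the fatty acid carrier of hepatocytes, was the member called lower (-0.34 ± 0.08). The rate-controlling carnitine transferase Cpt1a was not called (0.27, adjusted p = 0.803). Left out one at a time, TAA animal 1 reduced the called members to 5 and MPy animals 2 or 3 to 6, and centring the arrays on their medians left 6. The calls of Ech1 (any 1 of the 6 animals), Hsd17b4 (MPy animals 1, 2 or 3, TAA animal 1), Fabp1 (MPy animal 2, TAA animal 3), Cyp4a3 (TAA animal 1) and Acot1 (MPy animal 2) were lost without the animals in brackets, at adjusted p between 0.0529 and 0.242. Cyp4a1 differed by 0.48 without MPy animal 3 and 0.50 without TAA animal 1 (adjusted p 0.275 and 0.264).

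Among pericentral hepatocyte genes 2 of 12 were called higher in MPy livers and 0 lower (1.44% and 0.951% of all genes). The list median was -0.02. Oat, ornithine aminotransferase of the cells next to the central vein, read 12.12, 11.17 and 12.37 in MPy livers, against 8.51, 9.49 and 9.71 in TAA livers and 12.09, 11.48 and 11.97 in set 1. Only the TAA animals stood apart: MPy lay 0.04 from vehicle (adjusted p = 0.982) and TAA -2.61 (adjusted p = 3.35e-06), a direct difference of 2.65 ± 0.37. Glul, glutamine synthetase of the same cells, read 11.76, 11.27 and 11.11 in MPy livers, against 10.26, 10.54 and 10.48 in TAA livers and 11.13, 11.14 and 10.96 in set 1 (0.95 ± 0.19, adjusted p = 0.00157). Its other 2 probe sets gave 1.35 and 0.93. No other member was called, with Axin2 at 0.04, Lgr5 at 0.02, Slc1a2 at 0.14 and Cyp2e1 at -0.09.

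Among periportal genes 0 of 12 were called higher and 2 lower (1.44% and 0.951% of all genes), with a median of -0.15. Hal, histidine ammonia-lyase, read 10.68, 9.96 and 10.69 in MPy livers, against 11.25, 11.82 and 11.61 in TAA livers and 11.24, 11.24 and 11.13 in set 1 (-1.11 ± 0.21, adjusted p = 0.000816), with vehicle between both compounds. Sds, serine dehydratase, read 7.81, 7.60 and 8.06 in MPy livers, against 8.87, 10.45 and 8.98 in TAA livers and 8.79, 9.42 and 9.71 in set 1. Each MPy animal lay below the other 6 (-1.61 ± 0.39, adjusted p = 0.0141), but the size rested partly on TAA animal 2, without which it was -1.10 (adjusted p = 0.165), and the call was also lost without MPy animals 1 or 2 (adjusted p = 0.0567 and 0.0821). The same 2 genes were the called members among 31 genes of the urea cycle and amino acid catabolism (0 higher, 2 lower). The urea cycle enzymes themselves were not called, with Cps1 at -0.21 (adjusted p = 0.437), Ass1 at -0.02 and Arg1 at -0.17 (adjusted p = 0.287).

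A further set of differences lay in the list for the male or female growth hormone pattern of the rat liver. Of its 23 measured members 2 were called higher, Igfbp1 and Obp3, and 1 lower, Cyp2c12 (1.44% and 0.951% of all genes). Igfbp1 is counted as a list member only, and its difference is not read here as a male or female pattern. Obp3, a lipocalin (alpha-2u globulin family) of the male liver, read 12.49, 12.46 and 12.09 in MPy livers, against 10.04, 10.18 and 10.34 in TAA livers and 12.85, 12.76 and 12.68 in set 1. MPy differed from vehicle by -0.42 (adjusted p = 0.763) and TAA by -2.58 (adjusted p = 0.000287), so the direct difference of 2.16 ± 0.48 lay on the TAA side. Cyp2c12 read 10.17, 10.82 and 10.51 in MPy livers, against 11.93, 12.38 and 12.23 in TAA livers and 8.88, 9.15 and 9.11 in set 1. Both compounds stood above vehicle and TAA more so, with a direct difference of -1.68 ± 0.42 (adjusted p = 0.0192) that lost its call without MPy animals 1 or 3 or TAA animals 2 or 3 (adjusted p 0.0591 to 0.123). Other sex-dependent P450 genes were not called, with Cyp2c11, the main male form, at -0.11 and Cyp2c13 at -0.06. The second probe set of Obp3 gave 1.95. Obp3 and Cyp2c12 belong to families of close paralogs, and probe sets may take up signal from relatives.

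Inmt, an N-methyltransferase for indoles and thioethers, was the 1 called member among 18 genes of methionine and one-carbon metabolism. It read 10.55, 9.5 and 10.16 in MPy livers, against 7.60, 7.44 and 7.51 in TAA livers and 11.18, 10.93 and 10.89 in set 1 (2.55 ± 0.54, adjusted p = 0.0033). The MPy animals lay -0.93 from vehicle (adjusted p = 0.41) and the TAA animals -3.49 (adjusted p = 2.07e-05), so this gene too was low in TAA livers.

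Few genes of glycolysis and fat synthesis passed the test, all of them lower in MPy livers. Pklr, pyruvate kinase of the liver, read 9.69, 10.09 and 9.74 in MPy livers, against 11.01, 11.44 and 11.17 in TAA livers and 11.36, 11.59 and 11.20 in set 1. It was 2.57-fold lower than in TAA livers (-1.36 ± 0.26, adjusted p = 0.000989), and its second probe set gave -1.26. It was the 1 called member of 20 glycolysis and gluconeogenesis genes. Of 20 genes of fatty acid synthesis (median -0.31) 1 was called, Acly, which makes cytosolic acetyl coenzyme A (-1.07 ± 0.30, adjusted p = 0.0451), and leaving out any 1 of the 6 animals ended that call (adjusted p 0.0533 to 0.216). The desaturase Scd read 9.65, 11.54 and 11.11 in MPy livers, against 12.82, 12.97 and 12.86 in TAA livers and 13.23, 13.41 and 12.76 in set 1. The groups did not overlap, but the spread among MPy animals was wide and Scd was not called (-2.12 ± 0.67, adjusted p = 0.0884), nor were Fasn (-0.65, adjusted p = 0.41) and Thrsp (-0.95, adjusted p = 0.258). Lipc, hepatic lipase, was the 1 called member of 15 genes of lipid transport (-0.54 ± 0.10, adjusted p = 0.000522).

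Of 37 genes of the NRF2 and glutathione list 0 were called higher and 3 lower in MPy livers. The shares over all genes were 1.44% and 0.951%, and the list median was -0.17. Gclm, the modifier subunit of the enzyme that starts glutathione synthesis, read 9.69, 9.49 and 9.5 in MPy livers, against 10.67, 10.45 and 10.33 in TAA livers and 9.80, 9.66 and 9.79 in set 1 (-0.93 ± 0.19, adjusted p = 0.00248). MPy animals were near vehicle and TAA animals above it. Akr7a2, an aldehyde reductase, was lower (-0.38 ± 0.09), as was Cbr1, a carbonyl reductase (-0.33 ± 0.09). The call of Akr7a2 was lost without MPy animal 3 or TAA animal 2 (adjusted p = 0.0854 and 0.091) and that of Cbr1 without any 1 of the 6 animals (adjusted p 0.0567 to 0.239). Against set 1, 9 members were called higher in MPy livers (3.49% of all genes) and 16 in TAA livers (3.6%). In either, 0 were called lower (3.31% and 3.68% of all genes). Some members far above vehicle with both compounds were not called between them. Gsta3, a glutathione transferase, read 9.65, 9.59 and 9.86 in MPy livers, against 8.81, 8.59 and 9.35 in TAA livers and 6.11, 5.57 and 5.79 in set 1 (0.78 ± 0.46, adjusted p = 0.468). Aldh1a1, a retinal dehydrogenase, lay 2.80 above vehicle in MPy livers and 3.32 in TAA livers (-0.52 ± 0.46), and the quinone reductase Nqo1 differed by -0.51 ± 0.49.

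Ccng1, cyclin G1, a direct target of p53, was the 1 called member of 12 genes of the p53 response (lower, median -0.08). It read 8.81, 8.73 and 9.08 in MPy livers, against 9.44, 9.71 and 9.96 in TAA livers and 8.26, 8.37 and 8.31 in set 1. Both compounds stood above vehicle, by 0.56 for MPy and 1.39 for TAA (adjusted p = 0.0142 and 8.94e-09), with a direct difference of -0.83 ± 0.15 (adjusted p = 0.000425). Mdm2, which degrades p53, differed by -0.51 (adjusted p = 0.109) and Cdkn1a, the inhibitor p21, by 0.05 (adjusted p = 0.971). Gadd45a, which p53 and ATF4 both induce, read 9.47, 8.95 and 9.19 in MPy livers, against 8.18, 7.31 and 7.93 in TAA livers, and was not called (1.39 ± 0.43, adjusted p = 0.0748).

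None of the enzymes that may activate the compounds was called. Of 7 bioactivating oxidases 0 were called (limma, 1 at an unadjusted p under 0.05). Cyp2c11 read 13.56, 13.68 and 13.47 in MPy livers and 13.86, 13.61 and 13.57 in TAA livers (-0.11 ± 0.14, 95% interval -0.38 to 0.17). Cyp2e1 read 13.85, 13.66 and 14.04 in MPy livers and 14.02, 13.94 and 13.87 in TAA livers (-0.09 ± 0.13, 95% interval -0.35 to 0.17). Fmo1, the flavin monooxygenase, read 11.06, 10.28 and 10.80 in MPy livers and 11.03, 11.29 and 10.99 in TAA livers (-0.39 ± 0.29, 95% interval -0.98 to 0.2). Por, the reductase that supplies electrons to P450 enzymes, read 9.88, 9.62 and 10.21 in MPy livers, against 10.81, 10.45 and 10.38 in TAA livers and 9.76, 9.84 and 9.77 in set 1. The groups did not overlap and the difference was not called (-0.64 ± 0.23, 95% interval -1.11 to -0.18, adjusted p = 0.151). Cyp1a2 differed by 0.43 ± 0.29, Cyp2a1 by -0.07 ± 0.13 and Cyp2d4 by 0.06 ± 0.15. The arrays give RNA, and enzyme protein was not analysed here.

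Single members of other lists were called. Ces1d, a carboxylesterase that nuclear receptors regulate, read 11.91, 11.34 and 11.79 in MPy livers, against 11.10, 10.77 and 9.78 in TAA livers and 12.35, 12.32 and 12.36 in set 1. Both compounds were below vehicle and TAA more so (1.13 ± 0.19, adjusted p = 0.000224). The size rested partly on TAA animal 3, without which it was 0.74 (adjusted p = 0.0203), and the call was lost with only the 6 arrays in the fit (adjusted p = 0.104). Alas1, the first enzyme of heme synthesis, read 10.54, 10.43 and 10.09 in MPy livers, against 11.16, 11.32 and 11.35 in TAA livers and 11.06, 11.30 and 11.39 in set 1, low in MPy livers alone (-0.92 ± 0.25, adjusted p = 0.0369), with the call lost without any 1 of the 6 animals (adjusted p 0.0653 to 0.17). These 2 were the called members of 19 CAR and PXR targets. In bile formation, Abcb4, the phospholipid exporter of the canaliculus, was higher (1.00 ± 0.20, adjusted p = 0.00163) and Abcg5, a subunit of the sterol exporter, lower (-0.89 ± 0.25, adjusted p = 0.0428, lost without any 1 of the 6 animals at 0.0632 to 0.181). Abcb4 read 9.93, 9.89 and 9.48 in MPy livers, against 8.62, 9.0 and 8.68 in TAA livers, while the vehicle animals spread over both (9.36, 8.82 and 9.78). C9, the last component of the complement pore, was lower (-0.39 ± 0.08, adjusted p = 0.00197), at 13.11, 13.13 and 12.96 in MPy livers, against 13.48, 13.49 and 13.42 in TAA livers and 13.53, 13.58 and 13.63 in set 1.

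Some of the largest differences lay outside the lists. Cyp4b1 read 10.77, 10.95 and 12.16 in MPy livers, against 8.62, 8.57 and 8.64 in TAA livers and 8.76, 8.85 and 8.62 in set 1. All MPy animals stood above the rest, MPy animal 3 most (2.68 ± 0.17, adjusted p = 7.74e-17, and 2.25 without that animal). The SE rests on the spread pooled over all groups, while the MPy animals had an SD of 0.76. With only the 6 arrays in the limma fit the adjusted p was 0.00206. S100g, a vitamin D-dependent calcium-binding protein, read 5.52, 5.63 and 5.68 in MPy livers, against 6.75, 7.24 and 6.81 in TAA livers and 5.68, 5.65 and 5.70 in set 1. It stood apart in TAA livers alone (-1.32 ± 0.12, adjusted p = 4.87e-11), as did Ugt2b7, a glucuronosyltransferase, at 7.09, 7.03 and 7.00 in MPy livers, against 7.73, 9.07 and 8.20 in TAA livers and 6.81, 7.06 and 7.02 in set 1 (-1.29 ± 0.15, adjusted p = 2.03e-08). For Ugt2b7 the TAA animals had an SD of 0.68, and with only the 6 arrays in the limma fit the adjusted p was 0.0465. The Ugt2b genes are close paralogs. Elapor1, a membrane protein of endosomes and lysosomes, read 6.31, 6.42 and 6.76 in MPy livers, against 7.71, 7.85 and 7.92 in TAA livers and 7.79, 7.61 and 8.10 in set 1, and stood apart in MPy livers (-1.33 ± 0.20, adjusted p = 2.37e-05).

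Fabp5, a fatty acid carrier more typical of skin than of hepatocytes, read 10.32, 10.10 and 10.15 in MPy livers, against 11.66, 11.26 and 12.08 in TAA livers and 10.72, 11.20 and 10.43 in set 1, with vehicle between both compounds (-1.48 ± 0.39, adjusted p = 0.0255). Its call was lost without MPy animals 1, 2 or 3 or TAA animals 1 or 3 (adjusted p 0.0696 to 0.171). Dpt, dermatopontin of the extracellular matrix, read 11.06, 11.06 and 11.18 in MPy livers, against 12.11, 11.87 and 12.22 in TAA livers (-0.96 ± 0.19, adjusted p = 0.00197), and its second probe set gave -1.08. The secreted protease inhibitors Spink1l and Spink1 were lower (-1.0 ± 0.22 and -0.75 ± 0.18), and they are near-identical genes that may share signal. The call of Spink1l was lost without TAA animal 1 (adjusted p = 0.0576), and that of Spink1, an acinar marker of the pancreas, without MPy animals 1 or 3 or TAA animals 1 or 2 (adjusted p 0.0625 to 0.0752). The other 2 probe sets of Spink1 gave -0.82 and -0.86 and were not called. No other of the 14 pancreatic acinar markers was called. Marveld1, a membrane protein, read 9.93, 9.92 and 8.99 in MPy livers, against 10.70, 10.62 and 10.62 in TAA livers (-1.03 ± 0.28, adjusted p = 0.0353). Its second probe set gave -0.22 and was not called (adjusted p = 0.477). Its call rested on MPy animal 3 (-0.72 without it, adjusted p = 0.266) and was also lost without TAA animals 1, 2 or 3 (adjusted p 0.0808 to 0.108).

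Of 31 genes of tubulin, actin and annexin 2 were called higher and 0 lower (1.44% and 0.951% of all genes). Tubb6, a beta-tubulin, read 7.08, 7.04 and 6.98 in MPy livers, against 6.27, 6.28 and 6.14 in TAA livers and 6.30, 6.32 and 6.26 in set 1 (0.80 ± 0.20, adjusted p = 0.0192). Anxa5, an annexin, differed by 0.37 ± 0.10. Neither call held without MPy animals 1 or 2 or TAA animals 1 or 3, at adjusted p 0.0546 to 0.232, and that of Anxa5 was also lost without TAA animal 2 (adjusted p = 0.118).

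Over all probe sets, 2212 of 15866 had an unadjusted p under 0.05 between MPy and TAA (limma). The remaining 18 of the 38 lists held no call between both compounds (limma, 0 of 343 listed members, with 49 at an unadjusted p under 0.05). Among them were cholesterol synthesis (19 genes, 0 at an unadjusted p under 0.05), oxidative phosphorylation (52 genes, 6), the nucleolus and ribosome biogenesis (39 genes, 5), the proteasome (26 genes, 3), heat shock proteins and chaperones (17 genes, 4), acute phase proteins (22 genes, 5) and the interferon response (25 genes, 6). Fdps, an enzyme of cholesterol synthesis, read 12.76, 12.27 and 12.58 in MPy livers, against 12.65, 12.57 and 12.93 in TAA livers and 11.84, 11.88 and 11.81 in set 1. Of the 39 nucleolar genes, 8 were called higher against set 1 in MPy livers (3.49% of all genes) and 10 in TAA livers (3.6%). Krt18, a keratin of simple epithelia, read 11.92, 11.80 and 11.36 in MPy livers, against 11.92, 11.59 and 11.65 in TAA livers and 11.34, 11.01 and 11.20 in set 1. For Fdps and Krt18 both compounds overlapped and no difference between them was detectable with 3 animals per group.

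**Figure D4:**
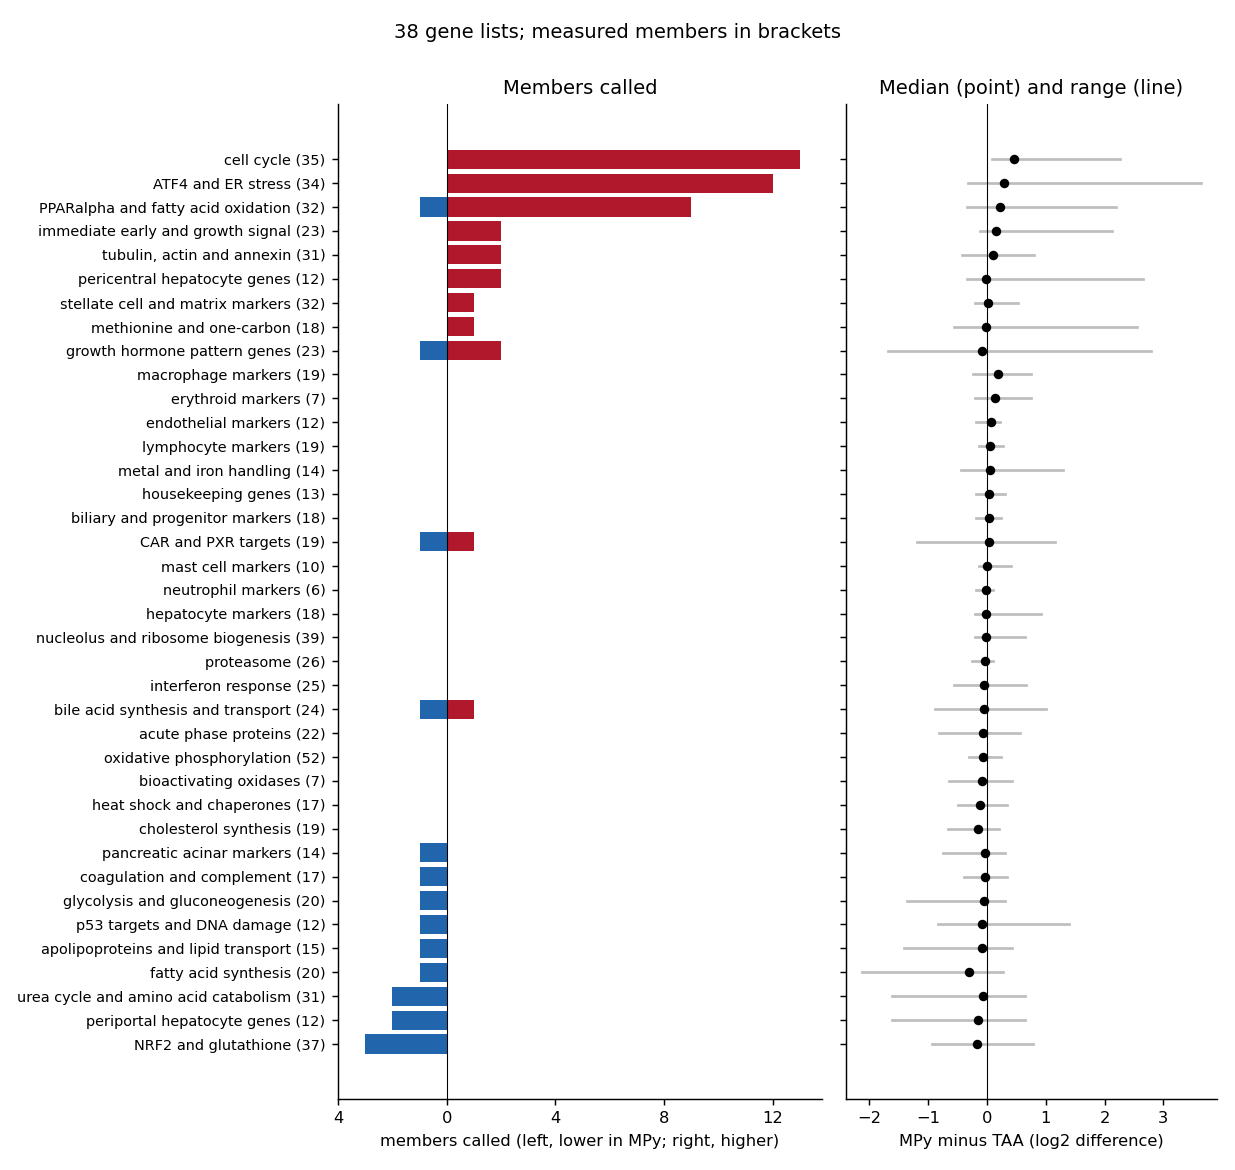
Left, number of measured members of each of the 38 gene lists (size in brackets) called higher (red, to the right) or lower (blue, to the left) in MPy than in TAA livers; right, median difference (point) and range (line) of the members on the log2 scale. Cell cycle (13), ATF4 and ER stress (12) and PPARalpha and fatty acid oxidation (9) hold most of the calls to the right, and NRF2 and glutathione (3) most to the left.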

How the data were processed

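The authors deposited log2 signals of RAE230A arrays that they had background-corrected, normalized and summarised with RMA (version not given in the sources used here), which compresses differences of dim probe sets. Raw scans, microRNA and protein were not analysed here. All 63 arrays and 15866 probe sets entered one linear model, with a separate mean per group (21 groups), in limma 3.58.1 in R 4.3.3 (empirical Bayes moderation, Benjamini-Hochberg adjustment over all probe sets, 42 residual degrees of freedom). Promoters and figures used Python 3.11.15. The code was tested on simulated data. Of the probe sets, 12783 had 1 gene symbol (12748 matched to RefSeq by gene ID), 312 several and 2771 none. Symbols come from GEO's platform annotation, and genes with several probe sets were represented by the one with the highest mean.

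Named were the 12 highest and 12 lowest called genes whose groups did not overlap, up to 4 called members per list, up to 2 members with the highest mean in a list without a call, and all bioactivating oxidases. The other called members were added, and uncalled members given as examples were chosen with their values known. The comparison, its members and the 38 gene lists were chosen with earlier results of these data known. The alternatives were other arrays in the fit, array weights, another variance prior, a filter on dim probe sets, other scalings, a replicate block, other control animals and leaving out each animal. The number of arrays limits the precision. The replicates are separate animals. Depth has no meaning for arrays, whose medians and correlations stand in the report.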

Additional observations from a re-analysis of the deposited data

Results flagged for a closer look

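In 16 of the named genes all MPy animals lay on one side of all 3 vehicle animals of control set 1 and all TAA animals on the opposite side. Only genes already called by the direct limma contrast were searched for this pattern, so their calls add no support to it. MPy lay above vehicle and TAA below it for the stress gene Nupr1 (MPy minus TAA 2.35) and the ER co-chaperone Dnajc3 (0.46), for the lipid hydrolase Aig1 (0.78), and for 11 cell cycle genes: Cdkn3 (2.26), Ccnb2 (1.71), Ube2c (1.46), Cdk1 (1.35), Cdc20 (1.17), Mki67 (1.13), Kif20a (1.10), Top2a (1.03), Tacc3 (0.80), Cdkn2c (0.61) and Mcm5 (0.46). MPy lay below vehicle and TAA above it for the periportal enzyme Hal (-1.11) and the fatty acid carrier Fabp5 (-1.48). Over all genes 35 called genes had this pattern. Against set 1, TAA was not called for any of the 16 named genes (limma, adjusted p 0.0751 for Nupr1 to 0.756 for Mki67). MPy was called for some, such as Nupr1 (0.00539) and Cdkn3 (0.0109), and not for others, such as Cdk1 (0.214) and Fabp5 (0.492). The pattern thus describes the order of the animals and not tested effects of both compounds. The vehicle animals were dosed for 14 days by their labels and both compounds for 7, and the part of this mismatch was not tested. Groups of 3 animals are too small for a test of single animals that stand apart.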

How the results depend on the processing

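Of the 68 called genes named by the rule or as list members, none changed direction and 33 kept their call under every alternative. Among their 946 alternative values 154 missed the threshold, most of them with 1 animal left out. The single called genes picked by hand under the other observations below were not followed through the alternatives. Among uncalled genes, differences near 0 such as Cyp2a1 (-0.07, and 0.07 without MPy animal 2) and Cyp2d4 (0.06, and -0.05 as the mean of its probe sets) changed sign. Among the 41 uncalled named genes, 3 alternative values passed the threshold. With only the 6 arrays in the limma fit 11 of the 68 called genes lost their call, among them Ces1d (adjusted p = 0.104) and Phgdh (0.0627). Array weights gave 809 called probe sets between MPy and TAA (472 higher, 337 lower), 1899 for MPy and 2028 for TAA against set 1. A second quantile normalization gave 198 lower and 239 higher probe sets, and the cause was not tested. Replicate numbers were not used to pair the animals in the main fit. Deviations of same-numbered animals from their group means correlated at -0.23, -0.20 and 0.04, and those of differently numbered animals at -0.09 to 0.27. With 3 animals per group the deviations from a mean depend on each other, so these values cannot exclude a pairing. A replicate block gave 240 called probe sets (161 higher, 79 lower) and 672 for TAA against set 1. With all methylcellulose controls pooled, 1730 probe sets were called for MPy and 1970 for TAA, with more control animals in the test. Leaving out 1 animal gave 164 to 263 called probe sets between both compounds, 107 to 172 higher, 55 to 91 lower and 23 to 32 beyond 2.5-fold, and against set 1 it gave 652 to 742 for MPy and 585 to 960 for TAA, with fewer animals in each fit. The counts were lowest without TAA animal 3 (164) and without MPy animal 2 (55 lower). The cell cycle list had 7 to 11 called members with 1 animal left out and 19 with array weights, and the ATF4 and ER stress list 9 to 11 and 14, counts that were added after the data were seen.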

Other observations

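Further called genes were chosen after their values were seen. Of 42 ribosomal protein genes found by symbol, 7 were higher and 0 lower in MPy than in TAA livers (1.44% and 0.951% of all genes). A positive difference was seen in 38, and the median was 0.24 beside 0.01 for all genes. Against set 1 their median difference was 0.47 in MPy livers and 0.23 in TAA livers, so both compounds stood above vehicle. Single genes outside the lists, picked by hand with no count of related genes, follow. Their calls were not followed through the alternatives. Higher in MPy livers were Lonp1, the protease of the mitochondrial matrix (0.60, limma adjusted p = 8.78e-06), Gtpbp2 (0.47, 9.01e-05), Aldh18a1 of proline synthesis (0.44, 0.00232) and Inhbe, a secreted inhibin subunit (0.74, 0.0263). Srprb, a subunit of the signal recognition particle receptor, was higher by 0.58 (adjusted p = 8.78e-06) and the ER protein Erp29 by 0.52 (0.0166). Both were low in TAA livers against set 1 (-0.81 and -0.67, limma adjusted p = 5.48e-09 and 0.000408). MPy was not called against set 1 for either (-0.23 and -0.16, adjusted p = 0.112 and 0.62).

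Lower in MPy livers, and likewise picked by hand, were 4 genes. Khk, which phosphorylates fructose, differed by -0.57 (adjusted p = 0.000158), the fructose transporter Slc2a5 by -0.42 (0.0322), Sord, which makes fructose from sorbitol, by -0.37 (0.0418) and Galt of galactose metabolism by -0.39 (0.0186). App, the amyloid precursor protein, was higher by 1.17 (adjusted p = 3.54e-09), and the inflammatory caspases Casp4 and Casp12 were higher by 1.09 (0.000431) and 1.04 (0.00896).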
